A study of Homo sapiens with 40 samples.

Results

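The genes described here are 42 members of the homologous recombination and Fanconi anaemia pathways, followed in 786-0 cells given a DNA methyltransferase inhibitor, a PARP inhibitor or both. They were taken from a list by function and matched to the count table by symbol, and all 42 were found among its 60664 genes. All 42 also passed the filter on low counts that left 22527 genes for testing, so every member is in every comparison. By role the list holds 5 genes of the BRCA complex, 5 recombinase paralogs, 4 strand exchange partners, 7 genes of end sensing and resection, 5 checkpoint genes, 1 polymerase of theta-mediated end joining, 9 genes of the Fanconi core complex with its E2 enzyme, the 2 genes of the Fanconi ID complex and 4 nucleases. The question was which treatments and days left these genes at lower RNA levels.

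786-0 is an established line of clear cell renal cell carcinoma, and it was studied in 2 forms, WT and KO, of which the second is labelled as lacking SETD2. The product of SETD2 is the enzyme that places the trimethyl mark on histone H3 along transcribed genes. Cells of each form were taken untreated at day 0, or after 100 nM DAC (decitabine, a nucleoside that depletes DNA methyltransferases), 10 nM BMN (BMN673, talazoparib, a PARP inhibitor), or both agents at those doses, at days 5, 16 and 26. That gives 20 groups of 2 libraries of total RNA, 40 libraries in all. No group was untreated after day 0, so time in culture is part of every comparison with control. One knockout form was sampled, and the labels used here do not say whether it was a clone or whether the 2 libraries of a group came from separate cultures. The p-values below therefore measure only the spread between libraries of the same group, pooled over the 20 groups, which may be technical.

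Homologous recombination repairs a DNA double-strand break by copying the sister chromatid. Nucleases resect the broken end, BRCA1 with PALB2 and BRCA2 loads the strand-exchange recombinase on the exposed strand, and the paralogs RAD51B, RAD51C, RAD51D, XRCC2 and XRCC3 steady the resulting filament. The Fanconi pathway acts at crosslinked DNA: its core complex ubiquitinates FANCD2 and FANCI, and nucleases then open the crosslink. Cells that lack these functions are known to be sensitive to PARP inhibitors, and several of the genes can be silenced in tumours by methylation of the CpG-rich DNA before their start.

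The DNA before 4 of these genes is shown with its CpG sites. Whether such silencing acts on any of them in these cells was not measured. RAD51C and FANCF are shown because they were lower in untreated KO than in untreated WT cells. EME1 and FANCB are shown because they had the lowest and highest log2 change among the members at day 5 of the combination in KO cells. The sequences are the 250 bases before the annotated start in RefSeq, build GRCh38.p14, on the gene's own strand, 5′ to 3′, with each CpG in capitals. They lie at chr17:58692323-58692572 (plus strand, 14 CpG) for RAD51C, chr11:22625824-22626073 (minus strand, 14 CpG) for FANCF, chr17:50372979-50373228 (plus strand, 17 CpG) for EME1 and chrX:14873070-14873319 (minus strand, 26 CpG) for FANCB.
RAD51C: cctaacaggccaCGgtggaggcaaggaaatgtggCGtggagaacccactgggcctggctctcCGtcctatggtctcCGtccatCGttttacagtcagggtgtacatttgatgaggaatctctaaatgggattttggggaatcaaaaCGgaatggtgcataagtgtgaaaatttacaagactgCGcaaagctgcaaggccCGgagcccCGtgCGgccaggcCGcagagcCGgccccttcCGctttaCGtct
FANCF: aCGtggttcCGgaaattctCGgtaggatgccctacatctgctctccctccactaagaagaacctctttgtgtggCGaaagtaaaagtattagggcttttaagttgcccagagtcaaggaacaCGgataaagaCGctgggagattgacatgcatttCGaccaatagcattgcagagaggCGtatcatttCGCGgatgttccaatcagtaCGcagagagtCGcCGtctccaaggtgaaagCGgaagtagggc
EME1: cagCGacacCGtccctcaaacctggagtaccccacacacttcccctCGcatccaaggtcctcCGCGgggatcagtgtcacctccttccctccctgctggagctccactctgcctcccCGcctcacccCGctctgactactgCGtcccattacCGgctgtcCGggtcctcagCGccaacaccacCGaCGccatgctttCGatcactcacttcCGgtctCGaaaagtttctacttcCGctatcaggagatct
FANCB: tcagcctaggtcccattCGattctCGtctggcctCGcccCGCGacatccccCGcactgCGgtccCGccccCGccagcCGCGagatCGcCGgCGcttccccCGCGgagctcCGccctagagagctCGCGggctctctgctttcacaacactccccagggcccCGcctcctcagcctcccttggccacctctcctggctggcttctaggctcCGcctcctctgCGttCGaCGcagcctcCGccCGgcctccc

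A RefSeq window was held for 38 of the 42 members. For each member the window with the most CpG sites was taken, and the median number in the 250 bases was 20 (range 1 to 35). Over 35116 windows of all genes, each counted singly, it was 11. The choice of window favours the members, so the 2 medians are unlike measures. The motif CCAAT, searched on both strands, was in 20 of the members' 51 windows (39.2%) against 32% of all windows. The cell cycle homology motif TTTGAA was in 5 member windows (9.8%) against 13.3%, and a form of the E2F motif (TTTGGCGC, TTTCGCGC, TTTCCCGC or TTTGGCGG) was in 1 (1.96%) against 2.83%. DNA methylation was not measured in the files used here, so these windows are context and carry no result.

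Libraries held between 17833960 and 22631101 counts assigned to genes. SETD2 RNA was between 107.6 and 179.9 CPM (counts scaled to library size by TMM) over the 40 libraries and was not lower in the untreated KO beyond the test (log2 -0.13 ± 0.07 SE, adjusted p = 0.2), so the RNA level of the targeted gene does not check the KO labels. The renal marker PAX8 lay between 209.9 and 481.3 CPM and vimentin (VIM) between 2978 and 5430 CPM, while CA9, a marker of clear cell carcinoma, never passed 3.054 CPM. The blood cell marker PTPRC was at 0 in 25 libraries and the endothelial marker PECAM1 in 26. COL1A1, listed as a fibroblast marker, was at 4.638 to 19.62 CPM in control and BMN libraries and reached 2010 CPM with DAC; its part in the results was not tested. Libraries of 1 group differed most among the untreated WT, where the chi-square per degree of freedom was 19.64 against a median of 3.485 over groups, followed by WT DAC day 26 (17.09) and WT BMN day 26 (11.19). The main fit pools the spread over all groups, so its standard errors do not reflect these differences between groups. The mean GC content of transcripts, weighted by counts, was 49.35% in the first and 50.56% in the second untreated WT library, and 48.6% to 50.63% over all libraries.

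Levels between genes are compared as mean CPM per kilobase of exon. NBN, part of the MRE11 complex that senses broken ends, was highest at 24.15, followed by the E2 enzyme UBE2T at 20.79, the checkpoint activator TOPBP1 at 18.25, the motor protein RAD54L at 15.35 and BRCA1 at 14.09. RAD51B was lowest at 0.5436, below RAD50 at 1.109 and the translocase FANCM at 1.329. Across the 20 groups the mean CPM of a member differed between its highest and lowest group by 1.312 times for UBE2T and by 3.397 times for RAD51C. RAD51C, EME1 (3.189 times) and BRCA1 (2.838 times) had the 3 widest ranges.

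Before treatment, 6 members were lower and 7 higher in KO than in WT cells, with 3 genes of break repair, RAD51C, BRCA1 and EME1, and the Fanconi adaptor FANCF at the low end. Over all genes 13.9% were lower and 13.4% higher, so the members' counts are near the background; 6 members passed when only the libraries compared were fitted. RAD51C, a paralog needed for filament assembly (chromosome 17, 58692573 to 58735611, GRCh38, plus strand), was at 23.4 and 19.9 CPM in WT and 9.82 and 8.82 CPM in KO. The KO libraries were both below the WT libraries, by a log2 change of -1.22 ± 0.12 (SE, adjusted p = 9.4e-10). BRCA1, the ubiquitin ligase that directs breaks to recombination, was at 171.8 and 135.4 CPM in WT and 102.5 and 84.59 CPM in KO, a log2 change of -0.72 ± 0.08 (adjusted p = 2.3e-08). FANCF, an adaptor of the core complex, was at 10.48 and 13.83 against 6.42 and 8.82 CPM (log2 -0.67 ± 0.15, adjusted p = 0.00055). EME1, partner of the MUS81 nuclease, was at 36.9 and 38.7 against 24.3 and 25.6 CPM (log2 -0.60 ± 0.09, adjusted p = 4.1e-06). In each of these genes the libraries of the lines did not overlap. RAD51D (log2 -0.39) and PALB2 (-0.25) were the other 2 lower members.

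The 4 members with the largest gain in untreated KO cells were the paralog XRCC2 (log2 0.55 ± 0.08), the checkpoint kinase CHEK1 (0.49 ± 0.09), RAD50 of the end-sensing complex (0.40 ± 0.14) and RAD54L (0.39 ± 0.08). XRCC2 was at 51.3 and 42.7 CPM in WT and 69.5 and 68.05 CPM in KO. The remaining higher members were ATM, BRIP1 and EXO1, named because they are few. FANCD2 (log2 0.07 ± 0.06), BRCA2 (-0.03 ± 0.18) and POLQ (-0.15 ± 0.08) did not pass. The median log2 difference of the 42 members was 0.01 and that of all tested genes -0.01. Among 56 other recombination and Fanconi genes, 5 were lower, led by RPA3 (-0.58) and RECQL5 (-0.49), and 5 higher, led by CLSPN (0.44) and MDC1 (0.38).

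**Figure D1:**
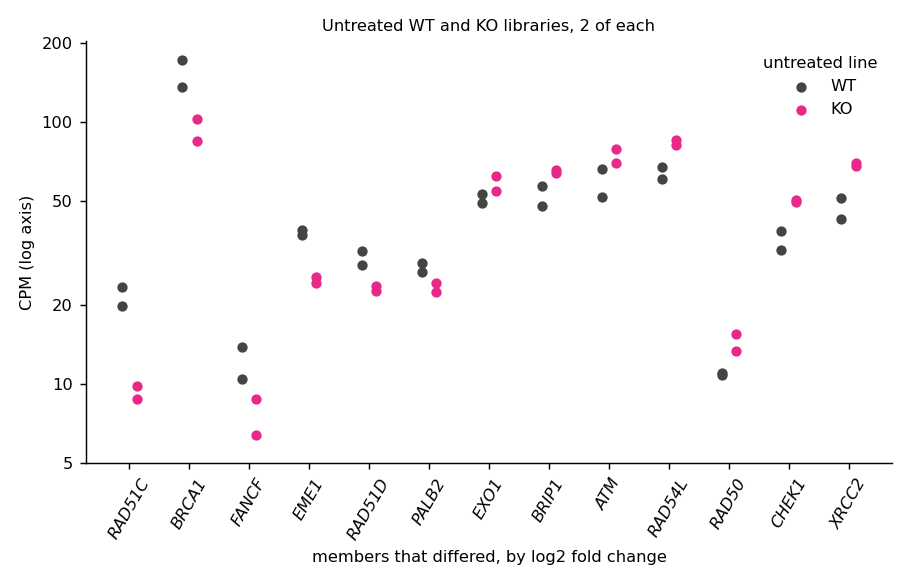
CPM on a log axis of the members that differed between untreated KO and untreated WT cells, each point a library, n = 2 libraries per line. Members are ordered by log2 difference, from RAD51C at -1.22 and BRCA1 at -0.72 to XRCC2 at 0.55.

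The lower level of RAD51C and BRCA1 in KO cells was present in all treated groups as well. Over the 20 WT libraries RAD51C had a lowest value of 16.64, a median of 21.91 and a highest of 27.98 CPM, and over the 20 KO libraries 7.472, 9.618 and 11.55 CPM. BRCA1 had 131.8, 167.6 and 184.6 CPM in WT and 61.49, 104.5 and 122.1 CPM in KO. These were the 2 members whose KO libraries all lay below all WT libraries, as 2.01% of all tested genes did; no member had all KO libraries above all WT libraries, as 0.741% of genes did. Against its own control RAD51C passed edgeR's test in 0 of 18 treated groups, with 3 at an unadjusted p below 0.05; with an offset for transcript GC content and length, described below, it was lower in 2.

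The combination at day 5 in KO cells was the arm with the most members lower than control: 19 fell and 7 rose of 42, against 22.2% of all tested genes lower and 27.1% higher. The lower count is above that background and the higher count below it. The genes that fell take in both ID complex genes, 5 of the 7 resection genes and 3 of the 5 checkpoint genes. Those that rose include the other 2 checkpoint genes, the kinases ATM and ATR. The median log2 change was -0.26 for the members and 0.08 for all tested genes. Summed over the members, the level was 1707 and 1729 CPM against 1969 and 1916 CPM in the 2 KO controls. In RNA from whole cultures, less RNA per cell and a smaller share of cells that express a gene cannot be told apart.

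**Figure D2:**
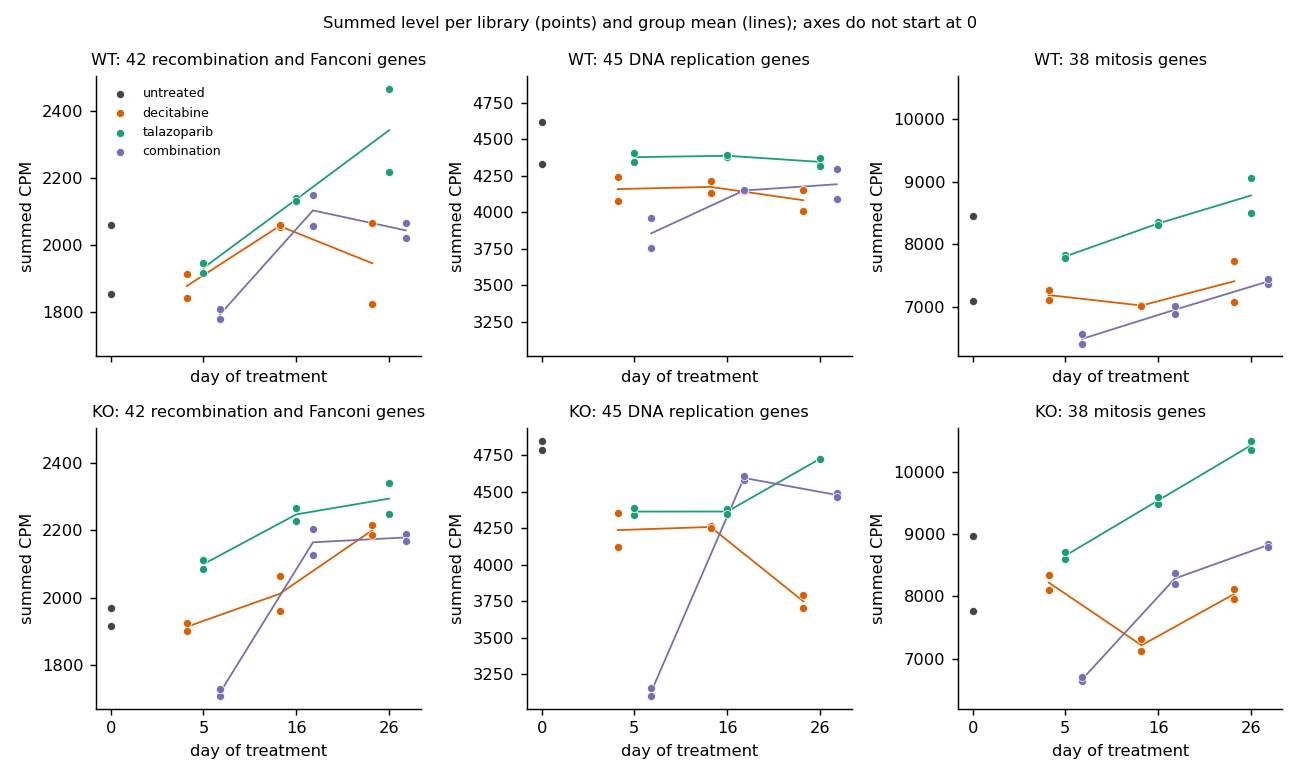
Summed CPM of the 42 members in each of the 40 libraries, by line, treatment and day. The 2 KO libraries given both agents for 5 days sit at 1707 and 1729 CPM, below the KO controls at 1969 and 1916 CPM.

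EME1 had the lowest log2 change. It was at 24.3 and 25.6 CPM in KO controls and 11.67 and 12.78 CPM after 5 days of both agents, a log2 change of -1.03 ± 0.10 (adjusted p = 2.8e-10). RAD51D, a paralog, was at 23.6 and 22.6 against 12.11 and 13.0 CPM (log2 -0.88 ± 0.11). FANCC, a core complex gene, was at 48.4 and 48.05 against 26.6 and 26.05 CPM (log2 -0.87 ± 0.08). In these 3 genes both treated libraries were far below both controls and close to each other.

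EXO1, the nuclease of long-range resection, was at 62.4 and 54.6 CPM in controls and 32.7 and 32.9 CPM with both agents (log2 -0.83 ± 0.08, adjusted p = 3.1e-11). RAD54L, which drives strand exchange on chromatin, was at 81.6 and 85.4 against 47.2 and 49.4 CPM (log2 -0.79 ± 0.09). FANCG was at 33.5 and 36.9 against 20.2 and 20.7 CPM (log2 -0.78 ± 0.11). The next genes are the pathway's centre: FANCD2, whose ubiquitination marks crosslinks, was at 104.3 and 110.6 against 65.3 and 63.9 CPM. Its log2 change was -0.73 ± 0.06 (adjusted p = 3.7e-12). BRCA1 was at 102.5 and 84.59 against 61.49 and 64.43 CPM (log2 -0.57 ± 0.09, adjusted p = 1.3e-06), so the treated libraries did not overlap the controls. POLQ, the polymerase of an alternative end joining route, was at 65.57 and 59.02 against 67.35 and 63.43 CPM and did not pass (log2 0.07 ± 0.08, adjusted p = 0.51).

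FANCB, the core complex gene on the X chromosome, rose in the same libraries from 4.91 and 6.94 to 12.9 and 13.3 CPM (log2 1.14 ± 0.27, adjusted p = 0.00061). ATM, the kinase activated by double-strand breaks, was at 69.8 and 78.5 CPM in controls and 132.4 and 133.6 CPM with both agents (log2 0.84 ± 0.09). ATR, the kinase of stalled forks, was at 55.9 and 59.2 against 100.3 and 97.8 CPM (log2 0.78 ± 0.12). Here both treated libraries were above both controls. FANCM rose by a log2 of 0.64 ± 0.20, and BRCA2, which loads the recombinase, was at 39.6 and 35.8 against 52.6 and 49.5 CPM (log2 0.44 ± 0.17, adjusted p = 0.036).

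The members that fell and rose differ in base composition: their median transcript GC content was 43.4% and 37.7%. With an offset for transcript GC content and length, added after these values were seen, 24 members were lower and 5 higher, and EME1 (-0.97), FANCC (-0.89), ATM (0.37), ATR (0.41) and FANCB (0.84) stayed past the threshold while BRCA2 did not. All shares over all genes in this report belong to the fit without the offset, so offset counts cannot be set against them. The levels of cycling genes were lower in the same libraries. Of 45 DNA replication genes 35 fell and 0 rose (median log2 -0.63), with sums of 3099 and 3155 CPM against 4849 and 4790 in controls. Of 38 mitosis genes 25 fell and 2 rose (median -0.35). Their part in the result was not tested. Of the 56 other recombination and Fanconi genes 22 fell and 5 rose (median -0.18), with RMI2 (-1.001 ± 0.16) and TIMELESS (-0.85 ± 0.08) lowest and the resolvase GEN1 (0.78 ± 0.19) and the translesion polymerase gene REV3L (0.63 ± 0.13) highest. Of 18 end joining genes 5 fell and 2 rose (median 0.02).

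**Figure D3:**
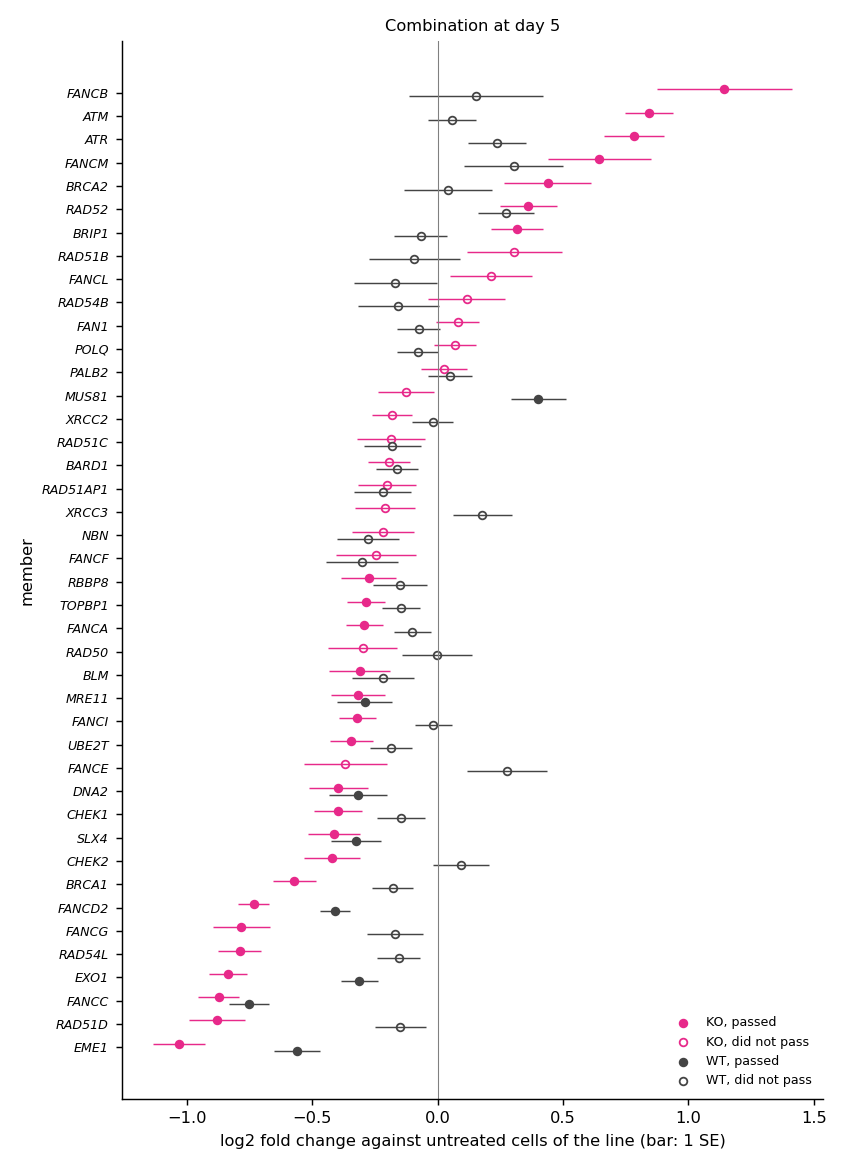
Log2 change of each of the 42 members after 5 days of both agents against control in WT and KO cells, with standard errors, n = 2 libraries per group. EME1 lies at -1.03 in KO and -0.56 in WT cells, and ATM at 0.84 in KO cells.

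In WT cells the same treatment and day lowered 7 members and raised 1, against 18.2% of all tested genes lower and 21.2% higher, so the count of lower members is near the background. The median log2 change of the members was -0.15 and that of all genes 0.02. FANCC was at 44.85 and 50.65 CPM in controls and 28.1 and 28.5 CPM with both agents (log2 -0.75 ± 0.08, adjusted p = 1.8e-09). EME1 was at 36.9 and 38.7 against 25.6 and 25.7 CPM (log2 -0.56 ± 0.09), and FANCD2 at 102.3 and 102.2 against 77.33 and 76.73 CPM (log2 -0.41 ± 0.06). In all 3 the treated libraries lay below the controls. The scaffold SLX4 (-0.33), the nucleases DNA2 (-0.32) and EXO1 (-0.31) and MRE11 (-0.29) also fell, and the nuclease MUS81 rose from 46.56 and 60.65 to 71.2 and 70.4 CPM (0.40 ± 0.11). BRCA1 (-0.18 ± 0.08), BRCA2 (0.04 ± 0.17) and POLQ (-0.08 ± 0.08) did not pass. Of 45 replication genes 21 fell and 1 rose, and of 38 mitosis genes 24 fell and 0 rose. The count of 8 members was 16 without the second WT control library, 15 (12 lower) with the GC and length offset and 4 when only the libraries compared were fitted.

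The difference between the lines at day 5 was taken as KO minus WT of the 2 changes, a comparison added after the counts by arm were seen. It reuses the 2 KO combination libraries singled out by those counts, which favours negative differences in advance. It is therefore not a separate check of the lower levels. The difference was negative for 11 members and positive for 2, against 9.54% and 7.23% of all tested genes. Both WT combination libraries of day 5 have a name ending that both KO ones lack, so line and ending go together there. A term for that ending is among the alternative fits. RAD51D (-0.73 ± 0.15), FANCE of the core complex (-0.64 ± 0.23), RAD54L (-0.64 ± 0.12), FANCG (-0.61 ± 0.16), MUS81 (-0.53 ± 0.16) and EXO1 (-0.52 ± 0.11) had the lowest values. BRCA1 (-0.39 ± 0.12, adjusted p = 0.021) and FANCD2 (-0.33 ± 0.08, adjusted p = 0.0067) were also among the 11. MUS81 is among the 11 although it rose in WT and did not pass in KO (-0.13 ± 0.11), and FANCE passed in neither line alone (0.28 ± 0.16 in WT, -0.37 ± 0.16 in KO). ATM (0.79 ± 0.13) and ATR (0.55 ± 0.17) had the 2 positive differences. Median transcript GC content was 49.6% for the 11 members and 39.5% for these 2. With the GC and length offset the members' median difference was -0.268, against -0.0905 without it. Of the members named here, RAD51D, RAD54L and EXO1 passed in every alternative fit and the others did not. Of 45 DNA replication genes 26 had a negative and 0 a positive difference (median -0.37, against -0.09 for the members), and of 38 mitosis genes 8 and 1; their part was not tested. The count of 13 was 6 when only the libraries compared were fitted, 6 without the first KO library of the combination at day 5, and 8 without its first WT library, the first WT control or the first KO control.

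The combination in KO cells was also compared at day 5 with each agent alone, without the day 0 control. These comparisons, and those of WT cells below, were added after the counts by arm were seen. The KO ones reuse the 2 combination libraries singled out by those counts, so they are not a separate check of the lower levels. Against DAC alone 17 members were lower and 3 higher (11.8% and 10.5% of all genes). EME1 was at 17.14 and 17.92 CPM with DAC alone and 11.67 and 12.78 with both (log2 -0.52 ± 0.10). BRCA1 was at 83.84 and 83.2 with DAC alone (log2 -0.41 ± 0.09) and FANCD2 at 78.01 and 74.13 CPM (log2 -0.24 ± 0.06), both above the combination in all libraries. The count of 20 was 10 without the first KO DAC day 5 library and 13 without the first combination library. Against BMN alone 20 members were lower and 2 higher (17.8% and 22.9% of all genes), with RAD51D at -0.84, EXO1 at -0.82, EME1 at -0.81 and BRCA1 at -0.68. Of the 45 replication genes 33 were lower and 0 higher against DAC and 35 and 1 against BMN, and of the 38 mitosis genes 20 and 26 were lower and 0 higher; their part was not tested. In WT cells the same comparisons gave 4 lower and 0 higher against DAC (5.52% and 6.77%), of which FANCC at -0.40 was lowest, and 8 lower and 2 higher against BMN (15.7% and 19.8%). The WT count of 4 was 1 without the second DAC library or either combination library, and the count of 10 was 6 without the second BMN library.

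Most of the lowered members were higher again by day 16 of the combination in KO cells. Between day 5 and day 16, a comparison added after the counts by arm were seen, 25 members rose and 0 fell, against 16.8% and 16.7% of all genes. Comparisons with day 5 in KO cells reuse the libraries singled out as lowest, which favours a rise in advance. BRCA1 went from 61.49 and 64.43 to 116.6 and 116.6 CPM (log2 0.89 ± 0.09), above both controls. RAD51D went from 12.11 and 13.0 to 18.22 and 22.94 CPM (log2 0.71 ± 0.11), and FANCD2 from 65.3 and 63.88 to 96.9 and 94.99 CPM (log2 0.57 ± 0.06). EME1 rose by 0.69 on the log2 scale to 19.91 and 19.47 CPM, still below both controls. EXO1 rose by 0.69 and POLQ by 0.36. By role, 6 of the 7 resection genes, both ID complex genes and 3 of the 9 core complex genes rose. In the same comparison 36 of 45 DNA replication genes rose and 1 fell (median log2 0.54, against 0.37 for the members), and 21 of 38 mitosis genes rose and 0 fell; their part in the rise was not tested. Between day 5 and day 26, 24 members rose and 1, ATM (-0.47), fell (21.6% and 21.1% of all genes), with NBN (0.94), EXO1 (0.90) and RAD51D (0.90) highest and BRCA1 at 0.81. The replication genes again had 36 higher and 1 lower and the mitosis genes 30 and 0. In WT cells between those days 13 rose and 2 fell (18% and 17.9%), with RBBP8, the factor that starts resection, at 0.68, CHEK1 at 0.67 and FANCD2 at 0.49, beside 21 replication genes that rose and 6 that fell.

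Against control, KO cells had 5 members lower and 17 higher at day 16 of the combination (19.5% and 23.1% of all genes) and 5 lower and 14 higher at day 26 (14.3% and 20.4%). WT cells had 3 lower and 11 higher at day 16 (20.1% and 22.8%) and 4 lower and 8 higher at day 26 (18.7% and 22.4%). The members' median log2 change at days 16 and 26 was 0.185 and 0.164 in KO and 0.133 and 0.0545 in WT. With the GC and length offset it was 0.0532 and 0.0156 in KO and 0.0526 and 0.0119 in WT. In KO cells at day 16 median transcript GC content was 50.6% for the lower and 40% for the higher members. At day 26 it was 53.1% and 38.6%. FANCC and EME1 were lower at all 3 days in both lines: FANCC by log2 -0.75, -0.68 and -0.68 in WT and -0.87, -0.56 and -0.37 in KO, and EME1 by -0.56, -0.38 and -0.41 in WT and -1.03, -0.34 and -0.44 in KO. The comparisons of 1 line share their 2 control libraries. Without the second WT library of the combination at day 16 its count of 14 was 8. At day 16 BRCA2 rose in both lines (0.79 in WT, 0.82 in KO), and at day 26 FANCM did (0.62 and 0.60).

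**Figure D4:**
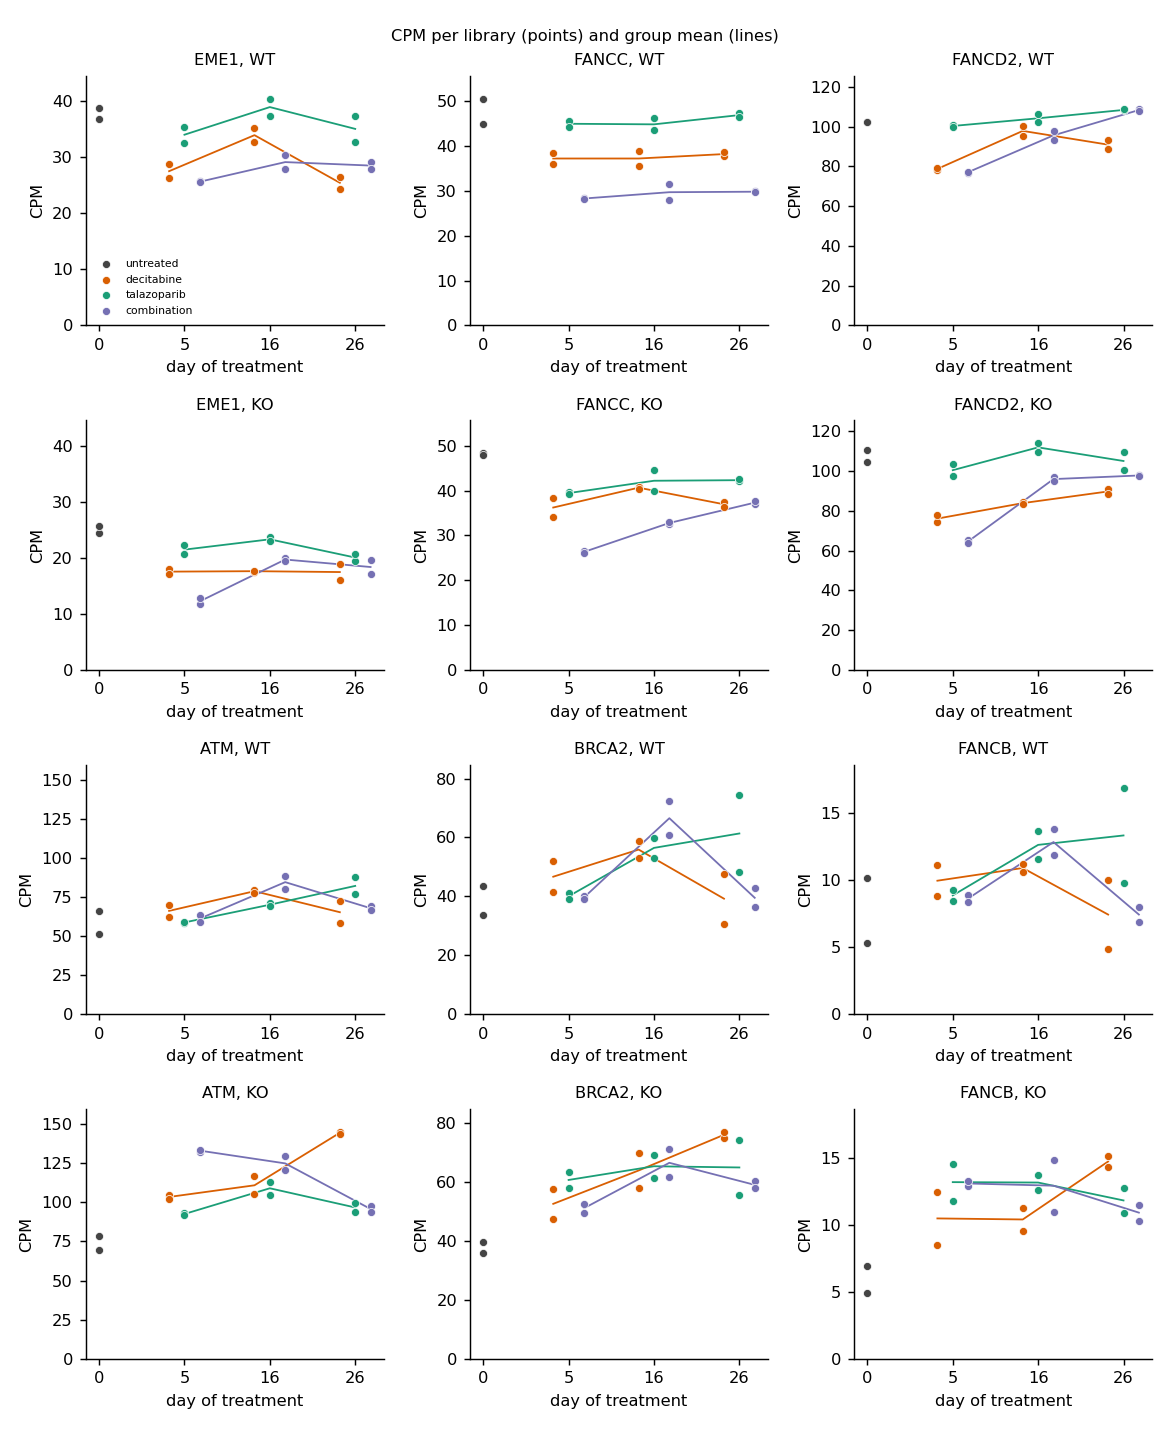
CPM of EME1, FANCC, FANCD2, ATM, BRCA2 and FANCB over the days of each treatment in WT and KO cells, each point a library. FANCD2 in KO cells drops to 65.3 and 63.88 CPM at day 5 of the combination and is at 96.9 and 94.99 CPM at day 16.

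Between 2 and 9 members were lower than the day 0 control at each day and line with DAC alone. In KO cells with DAC, 8 members were lower and 9 higher at day 5 (16% and 19.5% of all genes). The counts were 8 and 8 at day 16 (17.8% and 19.9%) and 9 and 17 at day 26 (20.9% and 26.3%). The lower counts were near the shares over all genes. At day 5 RAD51D was at 15.33 and 14.03 CPM against 23.58 and 22.59 in controls (log2 -0.65 ± 0.11), EME1 was lower by a log2 change of -0.51 ± 0.10 and FANCD2 by -0.50 ± 0.06. FANCB (0.82 ± 0.27), FANCM (0.58 ± 0.21), ATM (0.48 ± 0.09) and BRCA2 (0.48 ± 0.17) were higher. BRCA1 did not pass at any of the 3 days in either line, with log2 changes between -0.16 and 0.19. At day 26 FANCG was lowest at -0.73 ± 0.11, and FANCB (1.31 ± 0.26), BRCA2 (1.01 ± 0.17) and ATM (0.96 ± 0.09) were highest. The count of 17 at day 5 was 8 without the first KO control library and 10 without the second KO DAC day 5 library, and the count of 16 at day 16 was 9 without the first KO DAC day 16 library. With the GC and length offset 15 members were lower and 8 higher at day 5, and 14 and 10 at day 26. These offset counts have no share over all genes beside them.

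In WT cells with DAC, 4 members were lower and 1 higher at day 5 (12.2% and 15.6%). The counts were 2 and 6 at day 16 (14.9% and 18.6%) and 6 and 2 at day 26 (13.2% and 18.7%). The lower counts were near the shares over all genes at days 5 and 26 and below them at day 16. EME1 (-0.46 ± 0.09), FANCD2 (-0.38 ± 0.06), FANCC (-0.36 ± 0.08) and RAD51D (-0.31 ± 0.10) were lower at day 5, and FANCE (0.46 ± 0.16) was higher. FANCC stayed lower at day 16 (-0.36) and day 26 (-0.32). At day 26 EME1 was at 26.53 and 24.37 CPM (log2 -0.57 ± 0.09) and FANCA, a core complex gene, at 70.1 and 76.2 against 93.4 and 107.5 CPM (log2 -0.46 ± 0.07). The 5 members of day 5 were 10 without either control library, 12 (10 lower) with the GC and length offset and 1 when only the libraries compared were fitted. The 8 of day 16 were 4 without the second control, 5 without the second DAC day 16 library and 4 with only the libraries compared. The 8 of day 26 were 13 without the first control and 1 with only the libraries compared.

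BMN alone lowered few members. In WT cells edgeR called 0 lower and 0 higher at day 5 (0.04% and 0.146% of all genes) and at day 16 (0.426% and 0.257%), with 1 and 13 members at an unadjusted p below 0.05; DESeq2 also called 0 at both. Without the first WT control library the count at day 16 was 13. At day 26, 1 member was lower, FANCF (-0.49 ± 0.14), and 18 higher (11% and 12%), among them FANCB (0.77 ± 0.26), BRCA2 (0.67 ± 0.17), ATR (0.64 ± 0.12) and POLQ (0.35 ± 0.08). ATR was at 91.37 and 121.3 CPM against 57.18 and 79.07 in controls, so the treated libraries lay above both controls, though they differed from each other. The count of 19 was 0 when only the libraries compared were fitted, 3 without the second WT control and 6 without the first WT BMN day 26 library.

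In KO cells BMN gave 2 lower and 6 higher members at day 5 (6.65% and 5.07%), 3 and 18 at day 16 (15.2% and 10.3%) and 5 and 20 at day 26 (17.5% and 15.6%). NBN was at 124.8 and 119.0 CPM in controls and 222.8 and 203.4 CPM at day 26 (log2 0.81 ± 0.12), BRCA2 at 74.2 and 55.66 CPM (log2 0.79 ± 0.17), and BRCA1 at 122.1 and 115.3 CPM (log2 0.34 ± 0.08). FANCG (-0.42 ± 0.11) and MUS81 (-0.40 ± 0.11) were lowest. The members that rose at day 16 had a median transcript GC content of 39.4% and those that fell 57.3%, and with the GC and length offset 1 was lower and 4 higher at day 16 and 4 and 11 at day 26. The 8 members of day 5 were 1 and 3 without the first and second BMN library, and 2 and 5 without the first and second control. Without the second KO control or the second BMN library the 21 members of day 16 were 8, and without the first BMN library 13. Without the first KO BMN day 26 library the 25 of day 26 were 14.

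**Figure D5:**
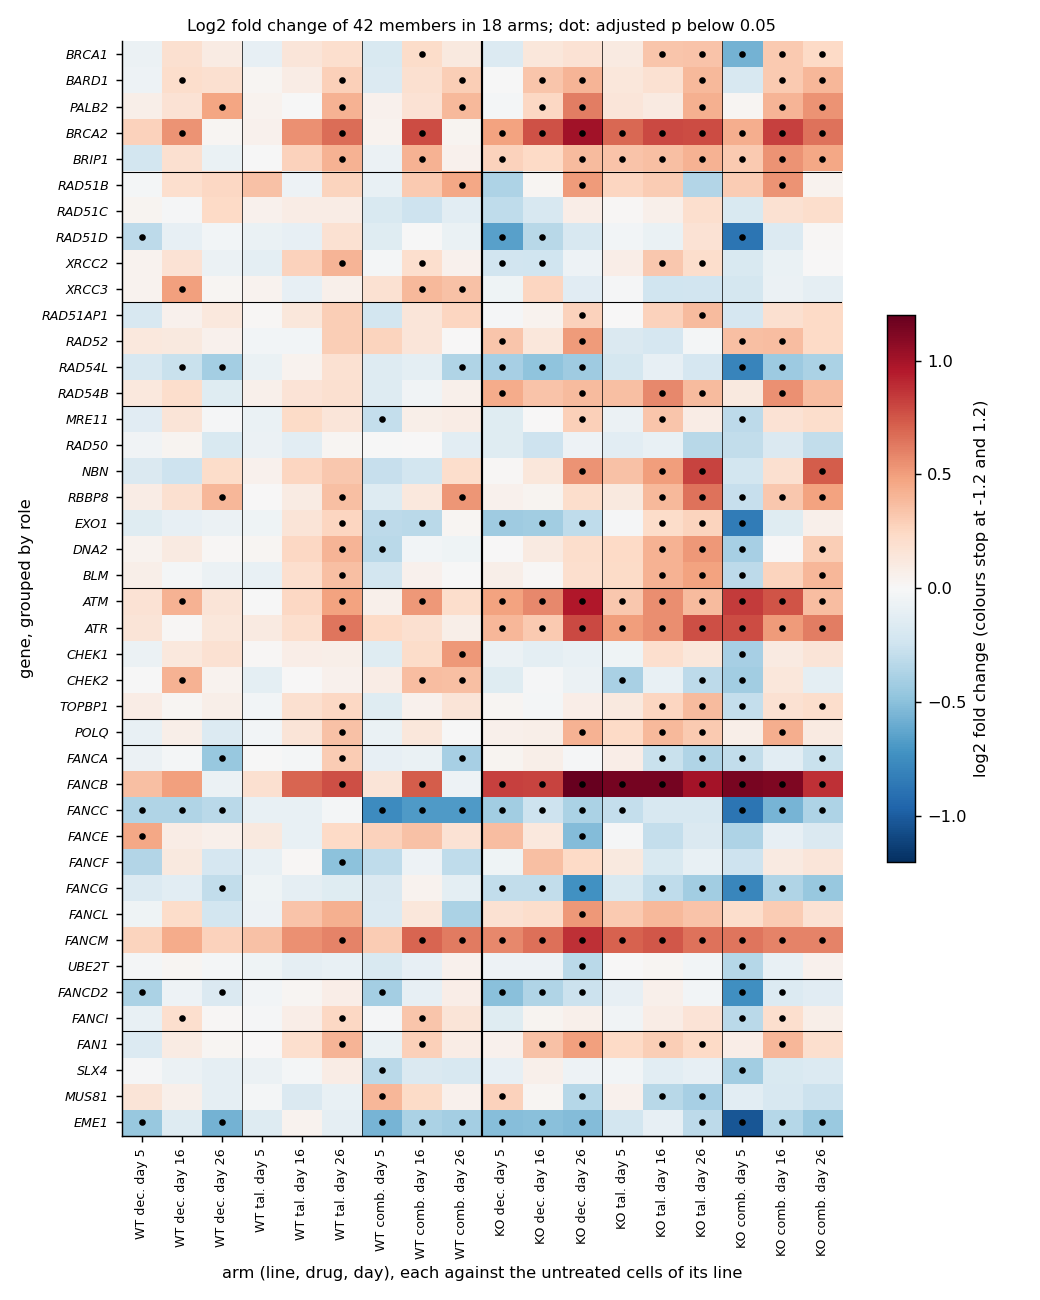
Log2 change of each of the 42 members (rows, by role) in the 18 treated groups against the untreated cells of the same line, with the colour scale in log2 units. In the KO column for both agents at day 5 EME1 is lowest at -1.03, and FANCC is below 0 in the DAC and combination columns of both lines.

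Averaged over the 3 days, more members were lower than were higher when cells given DAC, alone or with BMN, were set against cells given BMN alone. DAC against BMN gave 15 lower and 2 higher in WT (19.4% and 23.3% of all genes) and 17 and 7 in KO (23% and 28.5%). In KO cells EXO1 (-0.54 ± 0.04), RAD51D (-0.41 ± 0.06) and FANCD2 (-0.35 ± 0.03) were among the lowest. The annealing protein RAD52 was highest in KO at 0.46 ± 0.07. The combination against BMN gave 15 and 4 in WT (25.3% and 27%) and 17 and 2 in KO (19.2% and 26%), led by FANCC in WT (-0.64 ± 0.05) and EXO1 in KO (-0.46 ± 0.04). BRCA1 was lower in KO (-0.27 ± 0.05) and did not pass in WT (-0.03 ± 0.05). The combination against DAC gave 4 and 3 in WT (12.8% and 10.2%) and 4 and 1 in KO (11.8% and 10.9%). FANCC was lower there in both lines (-0.36 in WT, -0.25 in KO), and RAD51C was lower in WT (-0.27) and higher in KO (0.21). In WT cells the 7 members of the combination against DAC were 14 with the GC and length offset, and 3 or 4 without any of 7 libraries, all those of day 5 among them. In KO cells the 5 members were 3 without any of 8 libraries.

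Within each single agent, more members were higher at day 26 than at day 5 than were lower. The counts of lower and higher were 1 and 7 for DAC in WT (9.14% and 12.6%), 4 and 16 for DAC in KO (17.8% and 18.1%), 1 and 20 for BMN in WT (10.3% and 11.7%) and 3 and 9 for BMN in KO (9.38% and 8.95%). PALB2, the bridge between BRCA1 and BRCA2, was higher in all 4, by 0.41, 0.63, 0.38 and 0.28 on the log2 scale; it was singled out after its values were seen. For BMN the 21 members in WT were 4 without the first day 26 library and 6 and 7 without the first and second day 5 libraries, and the 12 in KO were 3, 5 and 4 without the same libraries. For DAC the 8 in WT were 2 and 5 without the first and second day 5 library and 4 without the first day 26 library, and the 20 in KO were 13 without the first day 5 library. Averaged over days, the KO response minus the WT response passed for 1 member lower and 2 higher with DAC (5.17% and 3.66%), 0 and 0 with BMN (1.1% and 0.124%) and 6 and 2 with the combination (6.95% and 7.25%). For BMN, edgeR gave 4 members at an unadjusted p below 0.05 and DESeq2 called 0. With the combination FANCG was lowest (-0.45 ± 0.13), FANCD2 was at -0.20 ± 0.07, and ATR was highest (0.47 ± 0.14); the count of 8 was 1 without the first WT control library, 15 without the second and 3 without either KO control. Without the second WT control the counts were 8 for DAC and 6 for BMN. The 3 members for DAC were 1 without the first KO control, 8 without the first WT DAC day 26 library and 5 without the second WT DAC day 5 library.

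Over the 18 comparisons of a treated group with its control, which share controls within a line, some members were lower in many and higher in none, others the reverse, and others passed in both directions or in neither. The share of all tested genes with tallies this high was not counted. The tallies therefore do not set these members apart from other genes. FANCC was lower in 13 and higher in 0, EME1 lower in 12, RAD54L and FANCG in 9 each and FANCD2 in 8, with none of these 5 ever higher. BRCA2, ATM and FANCM were higher in 12 each, FANCB in 11 and ATR in 10, with none of these 5 ever lower. With the GC and length offset FANCC was lower in 13, EME1 in 11, RAD54L in 12 (and higher in 1), FANCD2 in 11 and FANCG in 6. BRCA2, ATM and FANCB were then higher in 11 each, ATR in 9 and FANCM in 7. Other members depended on it: BRIP1 was higher in 10 without the offset and in 2 with it, BARD1 in 8 and 1, and POLQ in 5 and 1, while RAD50 was lower in 0 and 6. FANCB had 4.91 and 6.94 CPM in the KO controls that all 9 KO comparisons share, and 10.18 and 5.335 CPM in the WT controls.

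The remaining members are given by role, outside the naming rule and so chosen after their values were seen. Here too the tallies have no share over all genes beside them. In the BRCA complex, BRCA1 was lower in 1 of the 18 comparisons, the KO combination at day 5, and higher in 5, and PALB2 was lower in 0 and higher in 8. Of the paralogs, RAD51D was lower in 4 and higher in 0, XRCC2 lower in 2 and higher in 4, and XRCC3 and RAD51B higher in 3 each. Of the strand exchange partners besides RAD54L, the translocase RAD54B was higher in 5, RAD52 in 4 and RAD51AP1, which stimulates strand pairing, in 2, and none was lower. In end resection, EXO1 was lower in 6 and higher in 3, the nuclease DNA2 lower in 2 and higher in 4, the helicase BLM lower in 1 and higher in 4, MRE11 lower in 2 and higher in 2, and RBBP8 lower in 1 and higher in 7. Among the checkpoint genes, CHEK2 was lower in 3 and higher in 3, CHEK1 lower in 1 and higher in 1, and TOPBP1 lower in 1 and higher in 5. In the core complex FANCA was lower in 6 and higher in 1, UBE2T lower in 2, FANCE lower in 1 and higher in 1, FANCF lower in 1 and FANCL higher in 1. FANCI was lower in 1 and higher in 4, the nuclease FAN1 higher in 7, SLX4 lower in 2 and MUS81 lower in 3 and higher in 2. With the offset MRE11 was lower in 7 and higher in 0, XRCC3 higher in 11, and NBN, higher in 4 without it, lower in 6 and higher in 5.

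The KO combination at day 5 was the 1 comparison of the 18 in which BLM, TOPBP1, CHEK1, RBBP8, FANCI and BRCA1 were lower. The share of all tested genes lower in this comparison alone was not counted. With the GC and length offset BLM and RBBP8 were lower in 1 comparison each, BRCA1, CHEK1 and FANCI in 3 each and TOPBP1 in 2. In the fit without the offset, BLM was at 21.56 and 26.05 CPM against 31.08 and 27.99 in controls (log2 -0.31 ± 0.12), and CHEK1 at 38.04 and 37.66 against 49.54 and 50.26 CPM (log2 -0.40 ± 0.10). TOPBP1 changed by a log2 of -0.28 ± 0.08. FANCI was at 99.42 and 105.5 against 127.4 and 128.5 CPM (log2 -0.32 ± 0.07), and RBBP8 at 37.82 and 37.27 against 48.79 and 42.05 CPM (log2 -0.27 ± 0.11). In each of these the treated libraries lay below both controls. Whether the other arms lack these changes was tested only where the arms were compared directly, as above.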

How the data were processed

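RNA-seq libraries of 40 samples were used. The authors deposited 1 table of raw counts per gene, made with featureCounts 1.5.0-p1 on Ensembl 104 gene models of GRCh38 with strand setting 1 and a mapping quality of at least 20, per the file headers. The submitters' processing notes also name FastQC, Trimmomatic and Partek. Samples were grouped by line, treatment and day from the labels.

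Counts were fitted with edgeR 4.0.16 (R 4.3.3): TMM scaling, a filter (minimum count 10, minimum total 15), 1 mean per group over all 40 libraries with 20 residual degrees of freedom, and the quasi-likelihood test. Benjamini-Hochberg adjustment ran over the 22527 genes of each comparison, with a threshold of 0.05. Log2 changes are given with their standard error, and CPM values are scaled by TMM. There were 34 planned comparisons and 6 added after seeing the data. The script was tested on simulated data.

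BRCA1, BRCA2, FANCD2 and POLQ were named in every main comparison; of the other members that passed, up to 6 with the lowest and 4 with the highest change were open to naming, and of the other pathway genes the 2 lowest and 2 highest. Members and lists were chosen with earlier results of these data known.

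Alternatives were RLE scaling, no filter on low counts, DESeq2 1.42.0, only the libraries compared, the ending of library names, a replicate block, each library left out and, added after seeing the data, an offset for transcript GC content and length. The replicate numbers did not pair samples: 190 correlations of deviations between groups lay between -0.17 and 0.24. Libraries held 17833960 to 22631101 counts, but counting error depends on the counts of each gene. The lowest count in a library was 39 for RAD51B and 91 for FANCB, against 1841 for NBN. Counting error is therefore larger for the members with few counts. The spread of 2 libraries per group also limits precision.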

Additional observations from a re-analysis of the deposited data

Results flagged for a closer look

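The results below are differences between the lines: each is the log2 response in KO cells minus that in WT cells, and each passed edgeR's quasi-likelihood test of that difference. All use the 4 untreated libraries, of which the 2 WT ones stood apart from each other. Those of the combination at day 5 reuse the KO libraries singled out as lowest, which favours negative values in advance.

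For DAC, averaged over days, EXO1 was at -0.28, ATM at 0.43 and FAN1 at 0.32. For the combination averaged over days, FANCG was at -0.45, XRCC3 at -0.44, MUS81 at -0.42, CHEK2 at -0.41, RAD54L at -0.32 and FANCD2 at -0.20, with ATR at 0.47 and ATM at 0.39. With an offset for transcript GC content and length the ATM value turned to -0.0155.

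For the combination at day 5, RAD51D was at -0.73, FANCE at -0.64, RAD54L at -0.64, FANCG at -0.61, MUS81 at -0.53, EXO1 at -0.52, CHEK2 at -0.51, EME1 at -0.47, BRCA1 at -0.39, FANCD2 at -0.33 and FANCI at -0.30. ATR was at 0.55 and ATM at 0.79. Median transcript GC content was 49.6% for the members with negative values and 39.5% for ATR and ATM. FANCE lay at the threshold, with an adjusted p of 0.05.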

How the results depend on the processing

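RLE scaling, DESeq2 apart from 1 comparison, the replicate block and a term for the ending of library names left each count of members within 1.5 times. With a replicate block the combination at day 5 in KO cells gave 26 members against 26. Counts of members fitted on only the libraries compared were 6 for KO against WT untreated, 1 for WT DAC day 5, 4 for day 16 and 1 for day 26, 0 for WT BMN day 26, 4, 5 and 6 for the WT combination at days 5, 16 and 26, 3 and 9 for the combination against DAC over days in WT and KO, 0 and 13 for day 26 against day 5 of DAC and of BMN in WT, 0 for the response to DAC and 6 for that to the combination at day 5. Fewer libraries enter those fits. With the GC and length offset they were 12 for WT DAC day 5, 23 and 24 for KO DAC days 5 and 26, 5 and 15 for KO BMN days 16 and 26, 15 for the WT combination at day 5, 14 for it against DAC over days, 13 for KO DAC day 26 against day 5 and 6 for the response to DAC. Without the filter they were 3 for WT BMN day 16, 5 for WT DAC day 26 against day 5, 1 for the response to BMN, and 2 and 6 for the WT combination at day 5 against DAC and BMN. DESeq2 gave 5 for WT DAC day 26 against day 5. The cause was not tested.

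The offset turned 5 named values: ATM in WT BMN day 26 to -0.0658 and against day 5 to -0.0512, ATM in the response to the combination over days to -0.0155, and in KO BMN day 16 MUS81 to 0.0030 and FANCG to 0.0489. Of 332 named calls 163 passed in every setting run and 169 were lost in at least 1.

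With each library left out, the members called against control numbered 8 to 19 for KO BMN day 16, 14 to 24 for KO BMN day 26, 1 to 5 for KO BMN day 5, 9 to 15 for KO DAC day 16, 21 to 25 for KO DAC day 26, 8 to 14 for KO DAC day 5, 15 to 19 for KO DAC+BMN day 16, 13 to 16 for KO DAC+BMN day 26, 21 to 26 for KO DAC+BMN day 5, 0 to 13 for WT BMN day 16, 3 to 22 for WT BMN day 26, 0 to 0 for WT BMN day 5, 4 to 12 for WT DAC day 16, 8 to 13 for WT DAC day 26, 4 to 10 for WT DAC day 5, 8 to 18 for WT DAC+BMN day 16, 9 to 17 for WT DAC+BMN day 26, 6 to 16 for WT DAC+BMN day 5. For the other comparisons they numbered 10 to 14 for KO against WT untreated, 3 to 8 for KO BMN day 26 against day 5, 22 to 25 for KO DAC against BMN over days, 13 to 15 for KO DAC day 26 against day 5, 22 to 23 for KO DAC+BMN against BMN at day 5, 19 to 21 for KO DAC+BMN against BMN over days, 10 to 17 for KO DAC+BMN against DAC at day 5, 3 to 5 for KO DAC+BMN against DAC over days, 19 to 22 for KO DAC+BMN day 16 against day 5, 19 to 23 for KO DAC+BMN day 26 against day 5, 0 to 6 for response to BMN over days, 1 to 8 for response to DAC over days, 6 to 15 for response to DAC+BMN at day 5, 1 to 15 for response to DAC+BMN over days, 4 to 17 for WT BMN day 26 against day 5, 13 to 23 for WT DAC against BMN over days, 2 to 9 for WT DAC day 26 against day 5, 6 to 9 for WT DAC+BMN against BMN at day 5, 16 to 24 for WT DAC+BMN against BMN over days, 1 to 3 for WT DAC+BMN against DAC at day 5, 3 to 6 for WT DAC+BMN against DAC over days, 12 to 14 for WT DAC+BMN day 26 against day 5.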
